A study of Mus musculus with 18 samples.

Results

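The effect of alginate oligosaccharide (AOS) on the spleen transcriptome was examined across diabetes status. Of the 18 spleen libraries of the study, the 12 from animals without a microbiota transplant were used. They fall into 4 groups of 3: Con, A10, STZ and STZ-A10. AOS is a short sugar chain cut from the alginate of brown algae, and streptozotocin (STZ) is a compound toxic to pancreatic beta cells that is used to make mice diabetic. Con animals were controls, A10 animals were labelled with AOS at 10 mg/kg, STZ animals with STZ alone and STZ-A10 animals with STZ and the same dose of AOS. All were ICR mice, an outbred stock, and every spleen was labelled as taken at 10 weeks of age. The study's methods describe the mice used as male. The 6 AOS libraries (A10, STZ-A10) were compared with the 6 without AOS (Con, STZ), with STZ status as a covariate. The route and the length of AOS dosing in A10 and STZ-A10 are not given in the sources used here, whose methods describe only the controls, the STZ animals, the transplant recipients and the AOS-dosed donors. The labels do not say that each library is a separate animal, so p-values measure the spread between these libraries.

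The spleen filters blood in its red pulp, where macrophages clear old red cells and, in mice, new red cells are also made. In its white pulp, B cells meet antigen with the help of T cells, pass through germinal centres and become plasma cells, which fill their endoplasmic reticulum with antibody for secretion. AOS is known as a food oligosaccharide that gut bacteria can ferment, and microbial products are sensed by immune cells through pattern receptors and receptors for short-chain fatty acids, bile acids and tryptophan derivatives.

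Levels are given as RPKM, a read density scaled to gene length and to the mapped reads of the library, and differences are on the log2(RPKM + 1) scale, which understates differences of low genes. Of the genes listed, 12773 reached an RPKM of 1 in at least 3 of the 12 libraries and were tested with limma, with p-values adjusted by the Benjamini-Hochberg method. RPKM values carry no read counts, so the depth is unknown and no counting interval is given. The number of genes at 1 RPKM or more ran from 12066 to 12893 over the libraries. Across genes, Con libraries correlated with one another at r of 0.95 to 0.979, A10 libraries at 0.987 to 0.988, STZ libraries at 0.964 to 0.983 and those of STZ-A10 at 0.975 to 0.99. Spleen markers were present, since Cd79a (B cells) ran from 507.55 to 971.0 RPKM, Cd3e (T cells) from 15.75 to 41.86, Spic (red pulp macrophages) from 36.47 to 64.04 and Klf1 (erythroid cells) from 69.54 to 212.82. Before the results, 3 libraries need naming. Con replicate 1 held the most neutrophil transcripts, with S100a8 at 5153.63 RPKM against 127.68 to 1315.32 in the others. STZ replicate 1 and STZ-A10 replicate 1 held the least globin, 10.4% and 13.7% of summed RPKM against 17.2% to 36.2% elsewhere. The globin share itself was 27.7% ± 6.43 (SD, n = 3) in Con, 22% ± 4.37 in A10, 26.3% ± 13.8 in STZ and 26.1% ± 11.4 in STZ-A10. The AOS difference was -2.92 percentage points (exact permutation test within STZ status, two-sided, p = 0.57, n = 3 per group, smallest possible p 0.005). In whole tissue, fewer cells of a type and less RNA per cell cannot be told apart.

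For AOS against no AOS, 1 of 12773 genes (0.00783%) passed the adjusted threshold of 0.05. This gene was Kap, the kidney androgen-regulated protein, a secreted protein known from the proximal tubule of the kidney (GRCm38 chromosome 6, 133849851 to 133853762, minus strand, protein coding). Without adjustment, 919 genes had a p under 0.05 (7.19%), 625 with higher values under AOS (4.89%) and 294 with lower values (2.3%). The median log2 difference of all genes was 0.04, and 62.3% of genes lay above 0. In the same model, the STZ term passed for 523 genes (4.09%), with 2582 at an unadjusted p under 0.05 (20.2%).

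Kap was 13.33, 20.06 and 20.97 RPKM in the Con libraries and 23.68, 25.95 and 20.91 in the STZ libraries. It was listed at 0 in all 3 A10 libraries and was 0.6, 0.3 and 0 RPKM in STZ-A10. Every AOS library thus lay far below every library without AOS, in either STZ status. The fitted log2 difference was -4.25 (SE 0.13, adjusted p 1.95e-09), with -4.23 in A10 against Con and -4.26 in STZ-A10 against STZ. These sizes depend on the added 1, and with a pseudocount of 0.1 the difference was -6.88. Kap stayed past the threshold without any 1 of the 12 libraries. Kap reached an RPKM of 1 only in libraries without AOS and so passed the filter only through them. Its direction among the genes tested is therefore not independent of the filter. In the limma fit with no filter on low values, its log2 difference was -4.25 and its adjusted p 5.01e-08. Kap was also at 0 in 5 of the 6 transplant libraries, which are not part of the comparison, and at 0.14 RPKM in the other. All 3 libraries of STZ mice that received control microbiota, whose label names no AOS, were among those at 0.

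Of the 15 kidney genes listed, 2 were tested, Kap and Napsa, and the other 13 were too low to pass the filter. Napsa, a protease of kidney and lung, was 88.5 to 153.06 RPKM without AOS and 101.04 to 168.13 with it, which overlap (log2 difference 0.19, adjusted p 0.76). It was also 41.32 to 130.03 RPKM in the transplant libraries, while no untested member exceeded 0.52 RPKM in any library. How much of the Napsa level comes from kidney was not tested. The patterns of the untested members were not alike. Miox, the enzyme that opens the ring of inositol, was 0.29, 0.15 and 0.15 RPKM in Con and 0.38, 0.44 and 0.44 in STZ, and was listed at 0 in all 6 AOS libraries. The organic anion transporter Slc22a6 was 0.08, 0.09 and 0.09 in Con and 0.19, 0.17 and 0.03 in STZ, and was likewise at 0 in all 6 AOS libraries. Acsm2, a medium-chain acyl-CoA synthetase of kidney and liver, ran from 0.08 to 0.23 without AOS and from 0 to 0.01 with it. All 3 were also at 0 in the 6 transplant libraries. The phosphate transporter Slc34a1 was 0.27, 0.52 and 0.36 in Con, 0.29, 0.09 and 0.1 in A10, 0.41, 0.5 and 0.5 in STZ and 0.12, 0.08 and 0.04 in STZ-A10, and the defining kidney marker Umod 0 to 0.2 without AOS and 0 to 0.03 with it. The endocytic receptor Lrp2 was 0.08 to 0.22 without AOS and 0.1 to 0.19 with it, its partner Cubn 0.06 to 0.17 and 0.05 to 0.17, and the salt transporter Slc12a3 0.06 to 0.25 and 0.07 to 0.26, all overlapping. In a fit with no filter 4 genes passed, Kap, Tg, Acsm2 and Miox. Tg, the thyroglobulin of the thyroid, had higher values under AOS, 0.38 to 0.47 RPKM against 0.13 to 0.24 (log2 difference 0.29, adjusted p 0.00797). For Acsm2 and Miox the adjusted p was 0.0204 and 0.0244, and for Slc22a6, which did not pass, 0.363. The untested genes were named after their values were seen. The part of kidney RNA in the Kap difference was not tested.

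The window around the start of Kap is shown because Kap is the gene that passed. It is the RefSeq promoter window on GRCm38.p6, chr6:133853618-133853917, minus strand, with 250 bases before and 50 after the start. Capitals mark TATAAA, searched on both strands, 31 bases before the RefSeq start. The GENCODE gene given above begins at 133853762 on this strand, upstream of the RefSeq start, so the distance holds for the RefSeq start only. The TATAAA motif is in 14.2% of the 27025 promoter windows.
Kap: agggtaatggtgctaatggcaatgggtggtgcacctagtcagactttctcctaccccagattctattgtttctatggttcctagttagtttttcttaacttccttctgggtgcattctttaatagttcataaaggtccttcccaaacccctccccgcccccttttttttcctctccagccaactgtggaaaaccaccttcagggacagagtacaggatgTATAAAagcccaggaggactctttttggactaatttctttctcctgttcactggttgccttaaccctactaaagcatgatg

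By the rule used for naming, 5 genes were taken in each direction whose AOS libraries did not overlap the libraries without AOS in either STZ status. Genes of this kind numbered 56 with higher values under AOS (0.438% of those tested) and 35 with lower values (0.274%). Other than Kap, none of the named genes passed the adjusted test, and their values are given as descriptions.

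Trp53inp1 (chromosome 4, 11156431 to 11174379, plus strand), a p53-inducible protein with a role in autophagy, was 28.17, 33.89 and 35.88 RPKM in Con and 53.36, 43.06 and 52.14 in A10. In STZ it was 33.5, 25.44 and 26.42, and in STZ-A10 52.05, 39.51 and 44.65. The lowest AOS library lay above the highest library without AOS over all 12, with a log2 difference of 0.62 (SE 0.099, adjusted p 0.144). The chemokine receptor Cxcr3 (chromosome X, 101731535 to 101734269, minus strand), carried by activated T cells and plasma cell precursors, was 8.89, 12.13 and 8.03 in Con and 25.12, 15.93 and 17.29 in A10. Under STZ it was 8.85, 6.1 and 5.46 without AOS and 14, 14.46 and 9.27 with it. Its log2 difference of 0.86 (SE 0.156, adjusted p 0.173) was the largest of the 5.

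Tubb2b (chromosome 13, 34126748 to 34130466, minus strand), a beta tubulin, was 3.93, 5.43 and 4.95 in Con, 9.13, 7.29 and 8.63 in A10, 2.41, 2.03 and 3.08 in STZ and 4.27, 4.0 and 4.12 in STZ-A10. Pon3 (chromosome 6, 5220852 to 5256286, minus strand), a lactone-cleaving paraoxonase, was 10.58, 15.08 and 10.41 in Con, 22.63, 20.38 and 22.78 in A10, 8.89, 6.11 and 6.42 in STZ and 12.88, 10.2 and 10.18 in STZ-A10. Basp1 (chromosome 15, 25363277 to 25413764, minus strand), a membrane-bound protein first described in nerve endings, was 16.8, 25.14 and 19.37 in Con, 32.68, 30.88 and 33.99 in A10, 12.6, 11.62 and 13.47 in STZ and 15.94, 18 and 17.58 in STZ-A10. For all 3 the STZ-A10 values lay within or below the range of the Con values, while both AOS groups lay above their own comparison group. Their log2 differences were 0.63, 0.71 and 0.54, with adjusted p of 0.144, 0.159 and 0.169.

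Among the genes with lower values, Atp1b2 (chromosome 11, 69599736 to 69605942, minus strand), a beta subunit of the sodium pump, was 23.6, 22.85 and 19.45 RPKM in Con and 15.41, 16.75 and 13.56 in A10. In STZ it was 58.4, 57.63 and 49.48, and in STZ-A10 24.5, 34.51 and 37.8. The STZ libraries stood highest and the STZ-A10 libraries lay between them and Con, with a log2 AOS difference of -0.64 (SE 0.111, adjusted p 0.169). Reep6 (chromosome 10, 80329953 to 80336441, plus strand), a protein that shapes the endoplasmic reticulum, was 8.18, 8.41 and 5.42 in Con, 4.75, 4.34 and 3.97 in A10, 15.93, 11.35 and 13.82 in STZ and 4.3, 9.0 and 8.97 in STZ-A10. Its log2 difference was -0.74 (SE 0.165, adjusted p 0.303).

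Rfesd (chromosome 13, 76001535 to 76018719, minus strand), named for its Rieske iron-sulfur domain, was 10.59, 8.61 and 7.44 in Con, 6.5, 6.55 and 5.97 in A10, 11.43, 13.5 and 10.78 in STZ and 6.45, 8.34 and 7.89 in STZ-A10. Cyp4b1 (chromosome 4, 115624725 to 115647723, minus strand), a cytochrome P450, was 6.91, 5.73 and 8.41 in Con, 4.18, 4.47 and 4.4 in A10, 14.51, 15.79 and 15.24 in STZ and 13.61, 10.31 and 9.44 in STZ-A10. Their log2 differences were -0.51 (adjusted p 0.218) and -0.50 (adjusted p 0.243). All 9 genes beside Kap kept their direction under every alternative tried, which follows largely from their choice for lack of overlap. Trp53inp1 and Pon3 passed the threshold in 4 of 26 alternatives each, and the other 7 in 1 of 26.

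**Figure D1:**
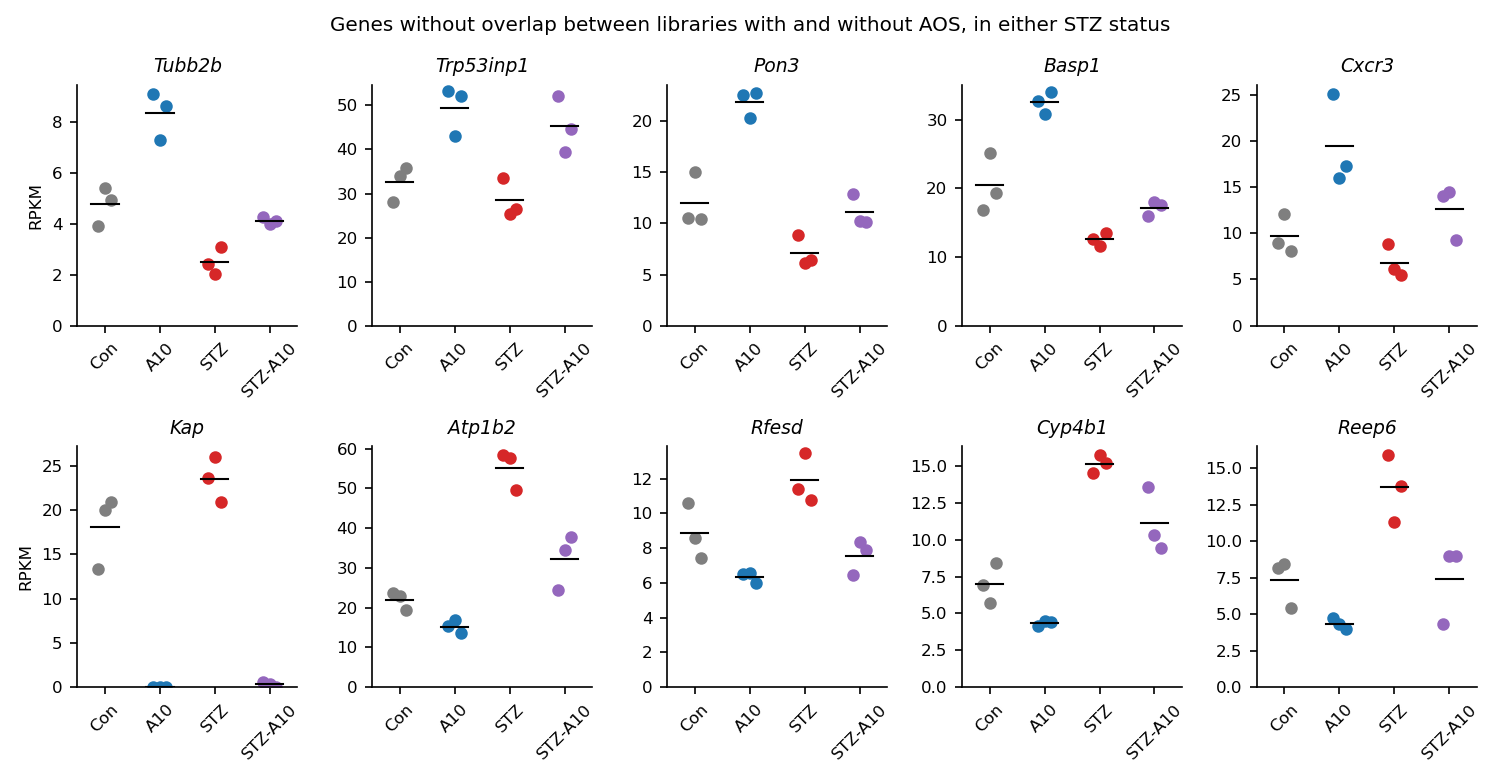
RPKM of the 10 named genes in each library (points, 3 per group) with the group mean (line), on axes that start at 0. In each panel the A10 points do not overlap the Con points and the STZ-A10 points do not overlap the STZ points, and Kap is at 0.6 RPKM or less in all AOS libraries.

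The differences in the STZ-free and the STZ animals were tested apart and against each other. In A10 against Con, 1 gene passed, Kap, with 682 genes at an unadjusted p under 0.05 (5.34%), 507 higher (3.97%) and 175 lower (1.37%). In STZ-A10 against STZ, 1 gene passed, again Kap, with 557 at an unadjusted p under 0.05 (4.36%), 235 higher (1.84%) and 322 lower (2.52%). For the interaction 0 genes passed with limma, with 394 at an unadjusted p under 0.05 (3.08%). Both comparisons have no library in common. The sign of the AOS difference was the same in both for 7827 genes (61.3%), and their log2 differences correlated across genes with r of 0.33, a description over genes that share the same libraries.

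**Figure D2:**
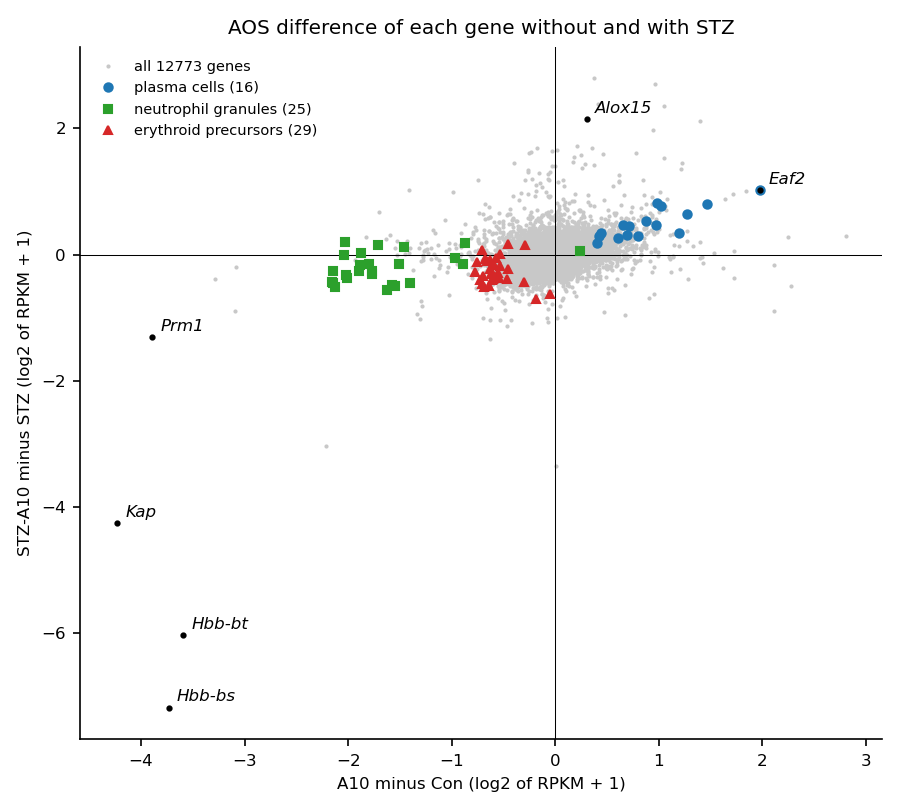
Log2 difference of A10 minus Con (x axis) against STZ-A10 minus STZ (y axis) for 12773 genes (grey), with the plasma cell, neutrophil and erythroid lists in colour. Kap lies at -4.23 and -4.26, all 16 plasma cell genes lie above 0 on both axes, and the neutrophil genes spread along the x axis with a median of -1.77 there and -0.26 on the y axis.

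Of 22 plasma cell and antibody secretion genes listed, 16 were tested. Of these, 16 had a log2 difference above 0, 15 had an unadjusted p under 0.05 in the higher direction (beside 4.89% of all genes), and 0 passed the adjusted test of limma, with the smallest adjusted p at 0.243. All A10 libraries lay above all Con libraries in 15 of the 16 (93.8%, against 11.7% of all genes). That share was 63.6% in the MHC class I list and 62.5% in the ribosomal protein list. All STZ-A10 libraries lay above all STZ libraries in 0 of the plasma cell genes (against 3.25%). The median log2 difference was 0.64, beside 0.04 over all genes, with 0.84 in A10 against Con and 0.46 in STZ-A10 against STZ. The summed RPKM of the list was 1190 to 1890 in Con and 2210 to 2750 in A10, which do not overlap, and 926 to 1460 in STZ and 1350 to 2120 in STZ-A10, which do. Without any 1 library, 15 or 16 of the 16 had an unadjusted p under 0.05, and with the globin share as a covariate 16. Immunoglobulin heavy and light chain genes were not analysed here.

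Jchain, which joins IgA and IgM into polymers, was 356.0, 758.71 and 351.59 RPKM in Con and 965.73, 838.03 and 903.07 in A10. It was 477.66, 249.91 and 242.75 in STZ and 747.5, 490.22 and 430.76 in STZ-A10. The A10 libraries lay above all Con libraries, while STZ replicate 1 lay within the range of STZ-A10. The log2 difference was 0.90 (SE 0.23, adjusted p 0.372). Hsp90b1, a chaperone of the endoplasmic reticulum, was 249.57, 349.74 and 314.32 in Con, 548.73, 440.29 and 602.52 in A10, 222.65, 185.22 and 274.1 in STZ and 314.67, 252.36 and 265.34 in STZ-A10. Its log2 difference was 0.55 (adjusted p 0.392), with 0.80 without STZ and 0.30 with it.

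The other members were chosen for description after their values were seen. Eaf2, a transcription elongation factor abundant in plasma cells, had the largest log2 difference of the list, 1.5 (SE 0.30, adjusted p 0.243). It was 8.85, 14.53 and 5.14 RPKM in Con, 43.84, 24.94 and 48.56 in A10, 7.86, 5.28 and 5.1 in STZ and 22.17, 12.88 and 7.81 in STZ-A10. Its A10 libraries stood apart from Con, and STZ replicate 1 exceeded STZ-A10 replicate 3 by a narrow margin. Sdc1, the surface proteoglycan used to recognise plasma cells, was 3.63, 5.77 and 3.24 in Con, 8.53, 7.09 and 9.57 in A10, 4.61, 2.9 and 2.64 in STZ and 7.01, 4.39 and 4.51 in STZ-A10 (log2 difference 0.70, adjusted p 0.303). Prdm1, which encodes the plasma cell regulator Blimp-1, was 1.51, 2.48 and 1.91 in Con, 4.37, 2.91 and 4.33 in A10, 3.19, 1.61 and 1.96 in STZ and 3.98, 3.21 and 2.96 in STZ-A10 (log2 difference 0.58, adjusted p 0.344). Xbp1, the transcription factor of the secretory programme, had a log2 difference of 0.56 (adjusted p 0.435), and Irf4, shared with activated T cells, was the member not at an unadjusted p under 0.05 (log2 difference 0.40, adjusted p 0.716 by limma). Creld2, a resident of the endoplasmic reticulum, had the smallest interaction p of the list by limma, 0.0253 unadjusted, with log2 differences of 1.19 without STZ and 0.34 with it.

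Ern1, Bhlha15 and Dnajb9 are not in the list and were picked from the 56 genes without overlap after their values were seen, so their direction and lack of overlap follow from that choice. Ern1, the sensor that splices Xbp1, was 3.01, 3.35 and 3.96 RPKM in Con, 4.78, 4.05 and 5.14 in A10, 4.92, 4.49 and 3.85 in STZ and 6.48, 5.44 and 5.84 in STZ-A10 (log2 difference 0.35, adjusted p 0.344). Bhlha15, a transcription factor of secretory cells, was 1.77, 3.43 and 1.35 in Con, 6.27, 3.77 and 6.58 in A10, 2.11, 1.27 and 1.48 in STZ and 4.12, 2.78 and 3.42 in STZ-A10 (log2 difference 0.91, adjusted p 0.218). Dnajb9, a co-chaperone, had a log2 difference of 0.33 (adjusted p 0.511).

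**Figure D3:**
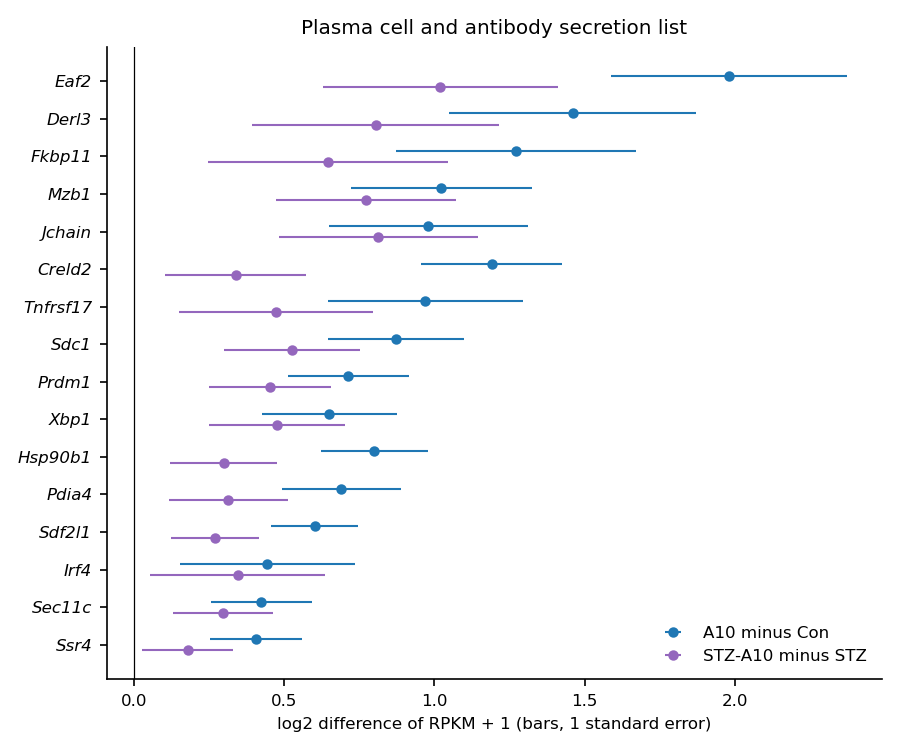
Log2 difference (x axis, points) with 1 standard error (bars) of the 16 tested plasma cell and secretion genes in A10 minus Con and STZ-A10 minus STZ, ordered by the main effect. All points lie above 0, and for each gene the point for the STZ-free animals lies to the right of the other, from Eaf2 at 1.98 and 1.02 to Ssr4 at 0.41 and 0.18.

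Promoter windows of 14 of the 16 genes were found in the RefSeq table. They were searched on both strands for the endoplasmic reticulum stress element (ERSE), which is known to be bound by NF-Y and ATF6. It was present in 35 of 27025 windows (0.13%) and in 3 of these 14, those of Derl3, Creld2 and Hsp90b1. Derl3, which helps to remove misfolded proteins, was 7.16, 18.16 and 7.09 RPKM in Con and 36.15, 22.11 and 29.67 in A10, with a log2 AOS difference of 1.13 (adjusted p 0.406). The shorter element TGACGTG was in 1.99% of windows and in 0 of the 14. The 3 windows that hold the stress element follow, on GRCm38.p6, with the match in capitals, from chr10:75893148-75893447 (plus strand), chr15:88819396-88819695 (plus strand) and chr10:86705395-86705694 (minus strand). The match begins 156 bases before the start in Derl3 and 126 in Creld2, and in Hsp90b1 there are 2 matches, 212 and 107 bases before it. A match describes the letters only.
Derl3: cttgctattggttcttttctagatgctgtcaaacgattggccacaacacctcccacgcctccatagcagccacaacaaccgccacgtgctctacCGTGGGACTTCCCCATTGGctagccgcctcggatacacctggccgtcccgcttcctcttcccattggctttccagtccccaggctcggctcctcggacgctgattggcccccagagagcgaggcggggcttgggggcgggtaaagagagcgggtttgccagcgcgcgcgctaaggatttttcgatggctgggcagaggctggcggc
Creld2: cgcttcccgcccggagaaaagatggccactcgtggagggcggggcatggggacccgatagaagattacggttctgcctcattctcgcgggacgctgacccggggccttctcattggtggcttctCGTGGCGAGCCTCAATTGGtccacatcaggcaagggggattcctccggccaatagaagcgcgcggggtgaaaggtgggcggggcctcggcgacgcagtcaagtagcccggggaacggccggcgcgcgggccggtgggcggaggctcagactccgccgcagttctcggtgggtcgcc
Hsp90b1: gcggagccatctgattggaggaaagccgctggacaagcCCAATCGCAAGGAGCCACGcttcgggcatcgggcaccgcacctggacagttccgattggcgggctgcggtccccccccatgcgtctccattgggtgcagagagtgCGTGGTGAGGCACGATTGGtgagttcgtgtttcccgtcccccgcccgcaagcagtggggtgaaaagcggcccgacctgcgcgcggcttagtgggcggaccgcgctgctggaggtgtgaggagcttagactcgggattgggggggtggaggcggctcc

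Genes of the germinal centre, where activated B cells multiply and are selected, were examined after some of their values had been seen, so no count over them is given. S1pr2, which keeps B cells within the centre, was 7.24, 9.08 and 4.34 RPKM in Con, 12.14, 10.2 and 12.82 in A10, 3.43, 4.09 and 3.28 in STZ and 7.09, 8.14 and 4.33 in STZ-A10. Each AOS group lay above its own comparison group without overlap, with a log2 difference of 0.70 (adjusted p 0.303). The transcription factor Mef2b had a log2 difference of 0.98 (adjusted p 0.413), likewise without overlap. Il21, the cytokine that follicular T cells give to these B cells, was 0.51, 0.8 and 0.21 in Con, 1.01, 1.43 and 1.28 in A10, 0.19, 0.31 and 0.2 in STZ and 0.95, 0.94 and 0.47 in STZ-A10 (log2 difference 0.56, adjusted p 0.278). Bcl6, the regulator of the germinal centre fate, had 0.24 (adjusted p 0.606), and Cxcr5, the receptor that leads cells into follicles, 0.12 (adjusted p 0.821). Il21 reached an RPKM of 1 only in A10 libraries. It thus passed the filter only through a group where it was high, and its direction is not an independent result.

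Of 25 general B cell markers tested, 25 lay above 0 (beside 62.3% of all genes) with a median of 0.16, and 1 had an unadjusted p under 0.05 (beside 4.89% higher), Pou2af1, a coactivator of antibody genes (log2 difference 0.45, adjusted p 0.608). The count of 1 was 8 without STZ replicate 1, 4 without STZ-A10 replicate 3, 2 without Con replicate 3 and 0 without Con replicate 1, A10 replicate 3, STZ replicate 3 or STZ-A10 replicate 1. The median was 0.09 without Con replicate 1, 0.10 without STZ replicate 2, 0.25 without Con replicate 3 and 0.28 without STZ replicate 1. Cd79a, part of the B cell receptor, was 507.55, 755.88 and 896.8 RPKM in Con, 745.8, 730.22 and 861.0 in A10, 971.0, 525.65 and 515.79 in STZ and 910.31, 671.81 and 527.41 in STZ-A10. These ranges overlapped in both STZ statuses, and the log2 difference was 0.12 (adjusted p 0.852).

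T cell genes had a median log2 difference of 0.26 over 35 tested, with 34 above 0 (beside 62.3% of all genes), 11 at an unadjusted p under 0.05 in the higher direction (beside 4.89%) and 0 lower. None passed the adjusted test, the smallest adjusted p being 0.173. Leaving out Con replicate 1 or STZ-A10 replicate 1 gave 7, and leaving out STZ replicate 1 gave 20. The median was 0.15 without Con replicate 1. The most abundant members, Cd2 and Cd3g, had log2 differences of 0.04 and 0.22. The 11 include co-stimulatory and inhibitory receptors of activated T cells, named here after their values were seen. Icos, a co-stimulator of follicular T cells, was 5.69, 7.28 and 6.17 RPKM in Con, 10.18, 9.54 and 9.58 in A10, 5.96, 4.71 and 5.27 in STZ and 8.39, 6.54 and 7.07 in STZ-A10, with a log2 difference of 0.47 (SE 0.09, adjusted p 0.173). Pdcd1, which encodes the inhibitory receptor PD-1, was 1.8, 2.69 and 1.72 in Con, 3.85, 3.71 and 3.56 in A10, 1.57, 1.85 and 1.28 in STZ and 2.72, 2.28 and 2.17 in STZ-A10, with a log2 difference of 0.52 (adjusted p 0.243). For these 2 genes the AOS groups did not overlap their comparison groups. Lag3, another inhibitory receptor, had a log2 difference of 0.69 (adjusted p 0.278), Tigit 0.70 (adjusted p 0.344), Cd28 0.56 (adjusted p 0.363) and Foxp3, the factor of regulatory T cells, 0.34 (adjusted p 0.659).

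MHC class I and immunoproteasome genes, which cut and present peptides to killer T cells, had a median of 0.31 over 22 tested. Of these, 21 lay above 0 (beside 62.3% of all genes), 12 had an unadjusted p under 0.05, all higher (beside 4.89%), and the smallest adjusted p was 0.45. The 12 were 7 without Con replicate 1 and 7 without STZ-A10 replicate 1. In A10 against Con 14 members did not overlap (63.6%, against 11.7% of all genes), and in STZ-A10 against STZ 0 (against 3.25%). The A10 share was also 62.5% over 40 ribosomal protein genes and 48.6% over 35 T cell genes. Psmb9, an immunoproteasome subunit, was 98.5, 115.62 and 97.2 RPKM in Con, 175.56, 156.7 and 176.2 in A10, 108.79, 81.59 and 94.08 in STZ and 134.73, 93.8 and 95.62 in STZ-A10. Its unadjusted interaction p was 0.0309 by limma (log2 difference 0.70 without STZ and 0.18 with it), and the adjusted interaction p was 1. B2m and H2-D1, the most abundant members, had log2 differences of 0.22 and 0.21.

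Interferon-stimulated genes had a median of 0.54 in A10 against Con and -0.04 in STZ-A10 against STZ. In A10 against Con 15 of 33 had an unadjusted p under 0.05, all higher (beside 3.97% of all genes), and in STZ-A10 against STZ 0 did by limma (beside 1.84%). However, all A10 libraries lay above all Con libraries in only 4 of 33 (12.1%, against 11.7% of all genes). The summed RPKM of the list was 1760.16, 1218.0 and 3500.44 in A10 and 1090 to 1380 in Con, so A10 replicate 2 lay within the Con range. The interaction test gave 4 of 33 genes at an unadjusted p under 0.05, all negative (beside 1.9% of all genes), and none after adjustment. The main-effect median was 0.27, with 4 at an unadjusted p under 0.05, all higher (beside 4.89%). The median was 0.07 without A10 replicate 3. The count was 8 without STZ replicate 3, 7 without STZ-A10 replicate 2 and 2 without Con replicate 1, Con replicate 2, A10 replicate 1, A10 replicate 3 or STZ replicate 2. Ifi27l2a, an interferon-induced mitochondrial protein and the most abundant member, was 292.41, 238.75 and 219.05 RPKM in Con, 471.1, 288.67 and 1108.29 in A10, 292.56, 175.51 and 270.65 in STZ and 291.17, 173.72 and 255.87 in STZ-A10. Its A10 replicate 3 value exceeded all others, and A10 replicate 2 lay below Con replicate 1. Zbp1, a sensor of nucleic acids, was 24.48, 24.32 and 23.91 in Con, 51.69, 35.29 and 88.41 in A10, 27.4, 19.61 and 29.94 in STZ and 32.0, 22.25 and 21.67 in STZ-A10 (unadjusted interaction p 0.0125 by limma).

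Of 21 cytokine and chemokine genes tested, 8 had an unadjusted p under 0.05 and higher values under AOS (beside 4.89% of all genes), with a list median of 0.30 and a smallest adjusted p of 0.278. That count was 3 without A10 replicate 3 or STZ-A10 replicate 1, 4 without Con replicate 3, and 5 when Con replicate 1, A10 replicate 1 or STZ replicate 2 was left out. The median was 0.19 without A10 replicate 3. Ccl5, a chemokine of T and killer cells, was 88.22, 158.31 and 122.59 RPKM in Con, 245.59, 170.9 and 207.6 in A10, 106.29, 78.62 and 82.26 in STZ and 113.55, 79.13 and 94.36 in STZ-A10. The groups overlapped only under STZ, and the log2 difference was 0.44 (adjusted p 0.627). Tgfb1, the other abundant member, had a log2 difference of 0.01 (adjusted p 0.985). Il10, an anti-inflammatory cytokine read at low levels, was 0.28, 0.41 and 0.06 in Con, 0.42, 1.0 and 1.38 in A10, 0.41, 0.91 and 0.17 in STZ and 1.3, 0.53 and 1.21 in STZ-A10 (log2 difference 0.52, adjusted p 0.509). Il10 reached an RPKM of 1 only in AOS libraries and so passed the filter only through them, and its direction is not an independent result.

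Genes that sense microbial products were included because the study concerned the gut microbiota. Of 31 pattern receptor genes, 4 had an unadjusted p under 0.05 in the higher direction (beside 4.89% of all genes), with a median of 0.14. That count was 7 without STZ replicate 1. It was 2 when Con replicate 2 or STZ replicate 3 was left out and 1 when A10 replicate 3, STZ replicate 2 or STZ-A10 replicate 1 was, and the median was 0.07 without STZ-A10 replicate 1. Of 24 genes for receptors and transporters of microbial metabolites, 13 were tested, 3 had higher values at an unadjusted p under 0.05 (beside 4.89% of all genes) and 1 lower (beside 2.3%), with a median of 0.10. The 1 lower became 2 without STZ replicate 1 and 0 without Con replicate 1, A10 replicate 1, A10 replicate 3, STZ replicate 2, STZ replicate 3, STZ-A10 replicate 1 or STZ-A10 replicate 3, and the median was 0.03 without Con replicate 1. Ffar2, a receptor for short-chain fatty acids, was 10.18, 9.74 and 10.22 RPKM in Con, 11.94, 11.35 and 12.36 in A10, 12.34, 8.56 and 7.42 in STZ and 17.59, 11.55 and 11.63 in STZ-A10 (log2 difference 0.35, adjusted p 0.578). Cyp1b1, a target of the aryl hydrocarbon receptor, was 6.47, 9.44 and 10.77 in Con, 12.71, 13.39 and 15.73 in A10, 26.11, 6.38 and 16.4 in STZ and 45.91, 29.03 and 25.66 in STZ-A10. Its A10 libraries lay above Con, STZ replicate 1 lay within the STZ-A10 range, and the log2 difference was 0.88 (SE 0.27, adjusted p 0.468). Tiparp, another target of that receptor, had 0.32 (adjusted p 0.481), and Nqo1, likewise a target, -0.37 (adjusted p 0.684). The lactate and butyrate transporter Slc16a1, the most abundant of the list, had -0.28 (adjusted p 0.744).

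For the list of genes induced when amino acids are short, the median was 0.02 in A10 against Con and -0.31 in STZ-A10 against STZ, and 10 of 21 genes had all STZ-A10 libraries below all STZ libraries (47.6%, against 4.72% of all genes). In that comparison 11 had an unadjusted p under 0.05, all lower (beside 2.52% of all genes), and in A10 against Con 4 were higher (beside 3.97%) and 1 lower (beside 1.37%). The interaction had an unadjusted p under 0.05 in 6 of 21, all negative (beside 1.9% of all genes), with none after adjustment. For the main effect 6 were lower (beside 2.3%) and 1 higher (beside 4.89%), or 3 higher without STZ replicate 1, and the 6 became 1 without STZ replicate 2 or STZ-A10 replicate 1 and 2 when Con replicate 1 or STZ replicate 3 was left out.

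Asns, asparagine synthetase, was 54.85, 40.92 and 31.34 RPKM in Con, 30.25, 31.92 and 25.67 in A10, 86.85, 94.7 and 86.21 in STZ and 35.19, 58.15 and 53.93 in STZ-A10. The STZ libraries stood above all others, and the log2 AOS difference was -0.68 (SE 0.15, adjusted p 0.303). Atf4, the transcription factor of this response and its most abundant member, was 218.11, 209.61 and 164.42 in Con, 180.64, 189.53 and 170.91 in A10, 191.7, 236.52 and 196.74 in STZ and 149.41, 178.25 and 174.54 in STZ-A10 (log2 difference -0.22, adjusted p 0.672). Mthfd2, of mitochondrial folate metabolism, was 40.85, 60.34 and 47.59 in STZ and 23.27, 34.7 and 37.4 in STZ-A10, and 36.77, 31.73 and 24.98 in Con against 29.21, 27.89 and 28.4 in A10. The amino acid exchanger subunit Slc3a2 had a log2 difference of -0.09 (adjusted p 0.757).

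Of the genes described in the lists from MHC class I onward, Psmb9, Zbp1, Il10, Ffar2, Tiparp, Nqo1, Asns, Mthfd2 and, further on, Gata1, Rhag, Car1 and the members of the liver, pancreas and germ cell lists other than the most abundant were named after their values were seen.

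By the naming rule for the interaction, 6 genes were taken, none of which passed (adjusted p of 1 by limma for each). Alox15, a lipoxygenase of resident macrophages and eosinophils, was 1.87, 2.65 and 1.29 RPKM in Con, 1.28, 3.96 and 3.0 in A10, 2.08, 0.81 and 1.18 in STZ and 9.13, 10.54 and 7.99 in STZ-A10. Only the STZ-A10 libraries exceeded 4 RPKM, with an interaction of 1.84 (SE 0.404, unadjusted p 0.000735). Fabp5, a fatty acid-binding protein, was 38.15, 32.1 and 24.66 in Con, 47.35, 53.35 and 50.21 in A10, 54.14, 52.99 and 43.47 in STZ and 37.98, 38.38 and 30.35 in STZ-A10. Here A10 lay above Con and STZ-A10 below STZ, with an interaction of -1.16 (unadjusted p 0.000227). The metalloproteinase inhibitor Timp3 was 34.9, 32.55 and 39.87 in Con against 21.96, 26.94 and 23.9 in A10, and 24.28, 21.12 and 26.85 in STZ against 27.6, 25.86 and 24.9 in STZ-A10. The scaffold gene Homer3 had an interaction of 0.63, the stress factor Atf5 one of -0.86 and the ribosomal protein gene Rpl34, which has many processed copies that share reads, one of -0.57.

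Erythroid precursor genes had a median of -0.43, with 29 of 29 below 0 (62.3% of all genes lay above 0) and 3 lower at an unadjusted p under 0.05 (beside 2.3% of all genes), Gata1, Rhag and Car1. That count was 26 without STZ replicate 1, 9 without STZ-A10 replicate 3, 5 without Con replicate 3 or STZ-A10 replicate 2, and 1 without Con replicate 1, Con replicate 2, A10 replicate 3, STZ replicate 2, STZ replicate 3 or STZ-A10 replicate 1. The median was -0.65 without STZ replicate 1 and -0.25 without STZ-A10 replicate 1. With the globin share as a covariate the count was 19, with a median of -0.26. All A10 libraries lay below all Con libraries in 17 of 29 (58.6%, against 4.82% of all genes). All STZ-A10 libraries lay below all STZ libraries in 1 (3.45%, against 4.72%). Car2, a carbonic anhydrase of red cells and the most abundant member, was 1672.89, 1238.59 and 1005.17 RPKM in Con, 758.23, 999.96 and 632.72 in A10, 625.97, 1811.93 and 1983.55 in STZ and 542.73, 1150.87 and 1368.93 in STZ-A10. The A10 libraries lay below Con, and the STZ groups overlapped (log2 difference -0.58, SE 0.30, adjusted p 0.718). Car1, the other red cell isoform, was 288.02, 304.27 and 233.01 in Con, 289.92, 284.93 and 166.83 in A10, 734.02, 829.34 and 642.63 in STZ and 421.51, 536.86 and 401.87 in STZ-A10. Its STZ libraries stood highest, and every STZ-A10 library lay below them (log2 AOS difference -0.44, adjusted p 0.579). Alas2, the first enzyme of heme synthesis in red cells, had -0.26 (adjusted p 0.84).

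The 6 globin genes differed among themselves. Hba-a1 and Hbb-b1, the most abundant, had log2 differences of -0.20 and 0.23 (adjusted p 0.879 and 0.891). Hbb-bs was 1913.87, 16794.91 and 21591.95 RPKM in Con, 545.91, 63.37 and 8414.06 in A10, 7587.91, 267.44 and 16417.43 in STZ and 102.04, 15.26 and 5.61 in STZ-A10. The values of its neighbour Hbb-bt ran in parallel, from 7.67 to 4220.3. All 3 STZ-A10 libraries lay below all STZ libraries for both genes, with log2 AOS differences of -5.45 (SE 1.35, adjusted p 0.357) and -4.81 (SE 1.14, adjusted p 0.344). Hbb-bs and Hbb-bt are known as the adult beta globin genes of one haplotype and Hbb-b1 and Hbb-b2 as those of another, ICR mice are outbred, and near-identical copies share reads, so these levels are uncertain. The genotype of the animals was not tested.

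Neutrophil granule genes had a median of -1.02 over 25 tested, with 24 below 0 (62.3% of all genes lay above 0) and 1 lower at an unadjusted p under 0.05 (beside 2.3% of all genes), Ly6g. In A10 against Con 19 were lower at that level by limma (beside 1.37% of all genes), and in STZ-A10 against STZ 0 (beside 2.52%). All A10 libraries lay below all Con libraries in 1 of the 25 (4%, against 4.82% of all genes). S100a8, an abundant calcium-binding protein of neutrophils, was 5153.63, 1315.32 and 275.61 RPKM in Con, 177.34, 454.58 and 257.98 in A10, 210.18, 127.68 and 566.82 in STZ and 245.92, 182.08 and 136.45 in STZ-A10. Con replicates 1 and 2 stood above the other 10 libraries, and the log2 difference was -1.30 (SE 0.63, adjusted p 0.706). Without Con replicate 1 the list's median was -0.50. The count of 1 was 18 without Con replicate 3, 11 without STZ replicate 2, 9 without STZ-A10 replicate 1, 4 without STZ replicate 1 and 0 without Con replicate 1, Con replicate 2, A10 replicate 1, A10 replicate 3, STZ replicate 3 or STZ-A10 replicate 3. Cell cycle genes had a median of -0.23, with 35 of 35 below 0 (62.3% of all genes lay above 0). By limma 0 had an unadjusted p under 0.05 (beside 7.19% of all genes), or 9 without Con replicate 3, 9 without STZ replicate 1 and 1 without STZ-A10 replicate 3. Their median was -0.15 without Con replicate 1 and -0.10 without STZ-A10 replicate 1. Platelet genes had medians of -0.50 in A10 against Con and 0.52 in STZ-A10 against STZ, and 14 of 29 had an unadjusted interaction p under 0.05, all positive (beside 1.18% of all genes), none after adjustment. Their summed RPKM was 1230 to 2840 in Con (highest in replicate 1) and 1080 to 1580 in A10, which overlap. It was 418 to 1050 in STZ and 732 to 1110 in STZ-A10, which also overlap. In 8 of 29 all A10 libraries lay below all Con libraries (27.6%, against 4.82% of all genes). In 0 did all STZ-A10 libraries lie above all STZ libraries (against 3.25%). With 1 library left out, the main-effect median of 0.01 ran from -0.11 (STZ replicate 2) to 0.21 (Con replicate 1). Pf4, a platelet chemokine, was 897.47, 451.18 and 324.68 in Con, 352.54, 415.24 and 291.76 in A10, 133.83, 94.07 and 285.76 in STZ and 200.25, 291.99 and 180.4 in STZ-A10.

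Red pulp macrophage genes had a median of 0.19, with 3 of 21 at an unadjusted p under 0.05, all higher (beside 4.89% of all genes), Timd4, Siglec1 and Cd5l, named after their values were seen. The count was 1 without STZ-A10 replicate 1 (median 0.12), 5 without STZ replicate 2 and 10 without STZ-A10 replicate 2. Cd5l, a secreted macrophage protein, was 16.03, 15.23 and 16.72 RPKM in Con, 19.57, 20.68 and 30.43 in A10, 22.9, 29.03 and 23.63 in STZ and 42.68, 20.62 and 38 in STZ-A10. The A10 libraries lay above Con, and the STZ groups overlapped (log2 difference 0.43, SE 0.16, adjusted p 0.606). The abundant ferritin genes Ftl1 and Fth1, which store iron, had log2 differences of -0.05 and -0.14 (adjusted p 0.856 and 0.75). Of the ribosomal protein genes and of the oxidative phosphorylation genes, 40 each, 0 had an unadjusted main-effect p under 0.05 by limma (beside 7.19% of all genes), with medians of 0.07 and -0.02. Leaving out STZ replicate 1 gave 4 ribosomal and 2 oxidative phosphorylation genes, A10 replicate 3 gave 1 ribosomal gene, and Con replicate 3 and STZ-A10 replicate 3 gave 4 and 1 oxidative phosphorylation genes. In A10 against Con their medians were 0.17 and 0.09 (beside 0.047 over all genes), with 39 of 40 above 0 in each. In STZ-A10 against STZ they were -0.05 and -0.13 (beside 0.034 over all genes), with 31 and 38 below 0. All A10 libraries lay above all Con libraries in 25 and 6 genes (62.5% and 15%, against 11.7% of all genes). All STZ-A10 libraries lay below all STZ libraries in 0 and 10 (0% and 25%, against 4.72%). The interaction had an unadjusted p under 0.05 in 0 and 4, all negative (beside 1.9%).

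**Figure D4:**
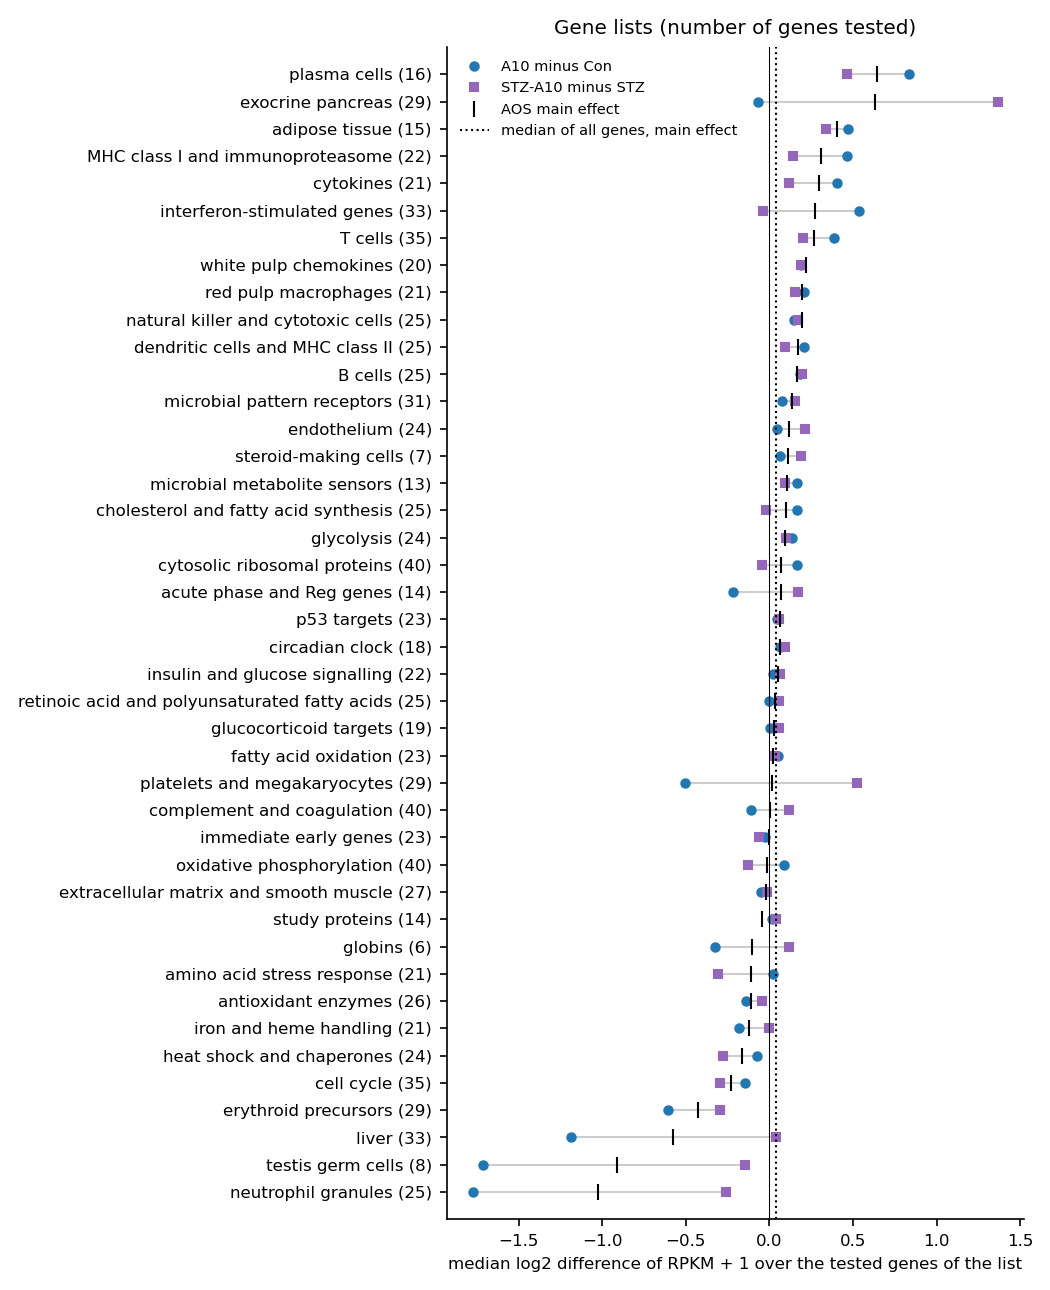
Median log2 difference (x axis) of each gene list with at least 6 tested genes, for A10 minus Con (circles), STZ-A10 minus STZ (squares) and the main effect (vertical ticks), with the median of all genes, 0.04, as a dotted line. By the main effect the plasma cell list lies highest at 0.64, beside 0.63 for exocrine pancreas, and the neutrophil list lowest at -1.02. These ranks turn under alternatives. With the globin share as a covariate plasma cells were at 0.57 and exocrine pancreas at 0.66. With array weights germ cells were at -1.81 and neutrophils at -1.33. The exocrine pancreas list is drawn out furthest to the right by the STZ groups, at 1.37.

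A further list joined transcripts of proteins measured with antibodies in the study's spleens (Cd163, Ccl21a, Ccl21b, Ccr7, Mki67, Trp53, Bax and Bcl2l1) with other apoptosis, heme and iron genes. Of its 15 genes, 14 passed the filter. None had an unadjusted p under 0.05 for the main effect by limma, the median was -0.04, and the smallest adjusted p was 0.716. With 1 library left out, 3 members reached an unadjusted p under 0.05 for STZ replicate 1, 2 for Con replicate 2 and 1 for Con replicate 1, STZ-A10 replicate 1 or STZ-A10 replicate 3. Ccl21a, a chemokine that draws T cells into the white pulp and has near-identical copies that share reads, was 574.58, 1115.26 and 706.75 RPKM in Con, 1227.41, 1164.13 and 1031.74 in A10, 1723.9, 1013.91 and 642.94 in STZ and 1949.48, 1281.82 and 1006.56 in STZ-A10. These groups overlapped, with a log2 difference of 0.48 (SE 0.24, adjusted p 0.716), and Ccl21b had 0.58 (adjusted p 0.719). Ccr7, the receptor of these chemokines, had 0.13 (adjusted p 0.829), the macrophage receptor Cd163 -0.17 (adjusted p 0.789) and the proliferation marker Mki67 -0.28 (adjusted p 0.775). Of the death-related genes, Trp53 had 0.01 (adjusted p 0.977), Bax 0.08 (adjusted p 0.805), Bcl2 0.09 (adjusted p 0.848) and Bcl2l1 -0.10 (adjusted p 0.934). Of the heme and iron genes, Hmox1 had 0.06 (adjusted p 0.881), Slc40a1 -0.13 (adjusted p 0.75), Hp -0.78 and Hpx -0.69 (adjusted p 0.744 for both).

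Transcripts of other organs varied between libraries. Alb (albumin, liver) was 7.59, 104.59 and 97.95 RPKM in Con, 25.22, 14.94 and 2.84 in A10, 0.32, 1.45 and 0.95 in STZ and 2.79, 0.25 and 0.1 in STZ-A10. Summed over the liver list, Con libraries ran from 164 to 752 RPKM, A10 from 202 to 349, STZ from 118 to 156 and STZ-A10 from 114 to 169, so the groups overlapped. Of 33 liver genes tested, 1 was higher (beside 4.89% of all genes) and 2 lower (beside 2.3%) at an unadjusted p under 0.05, with a median of -0.58, and 18 were lower without Con replicate 1. The median was -0.25 without Con replicate 2, -0.32 without Con replicate 3 and -0.30 without A10 replicate 3. The count of 2 was 1 without Con replicate 2, A10 replicate 3, STZ replicate 3, STZ-A10 replicate 2 or STZ-A10 replicate 3. In A10 against Con 10 liver genes were lower at that level by limma (beside 1.37%) and 1 higher (beside 3.97%). In STZ-A10 against STZ 1 was lower (beside 2.52%) and 1 higher (beside 1.84%). Prss2 (trypsin, exocrine pancreas) was 147.76, 23.77 and 0.52 in Con, 3.1, 51.94 and 42.73 in A10, 486.42, 139.68 and 101.25 in STZ and 401.78, 466.78 and 637.61 in STZ-A10. The 29 pancreas genes tested had a median of 0.63, 0 at an unadjusted p under 0.05 by limma (8 without Con replicate 1 and 1 without A10 replicate 1), and summed values of 32.6 to 13100 RPKM. That median was 1.26 without Con replicate 1, 1.18 without A10 replicate 1, 0.34 without STZ replicate 3 and 0.18 without Con replicate 3. In STZ-A10 against STZ the median was 1.37 (beside 0.034 over all genes), with 29 of 29 above 0. All STZ-A10 libraries lay above all STZ libraries in 13 of 29 (44.8%, against 3.25% of all genes). In A10 against Con the median was -0.07 and 0 of 29 had no overlap. Prm1 (a sperm protamine) was 11.27, 85.59 and 6.56 in Con, 0.57, 0.57 and 0 in A10, 4.24, 0.55 and 2.74 in STZ and 0.28, 0.57 and 0 in STZ-A10. Of the 25 germ cell genes listed 8 were tested and 4 had lower values at an unadjusted p under 0.05 (beside 2.3% of all genes), Prm1, Prm2, Tnp1 and Tnp2. These 4 reached an RPKM of 1 only in libraries without AOS and so passed the filter only through them. Their direction is therefore not an independent result, and the counts over this list carry the same limit. There were 4 lower in A10 against Con (beside 1.37%) and 0 in STZ-A10 against STZ by limma (beside 2.52%), and 4 of 8 had an unadjusted interaction p under 0.05, all positive (beside 1.18%), none after adjustment. The list's main median of -0.91 was -0.52 without Con replicate 2. Of the 15 fat genes tested, 4 were higher at an unadjusted p under 0.05 (beside 4.89% of all genes), with a median of 0.41, and this count was 1 without Con replicate 1, A10 replicate 2, STZ replicate 3 or STZ-A10 replicate 1, 2 without STZ replicate 1, 7 without A10 replicate 1 and 8 without Con replicate 2. The part of these tissues in any AOS difference was not tested.

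**Figure D5:**
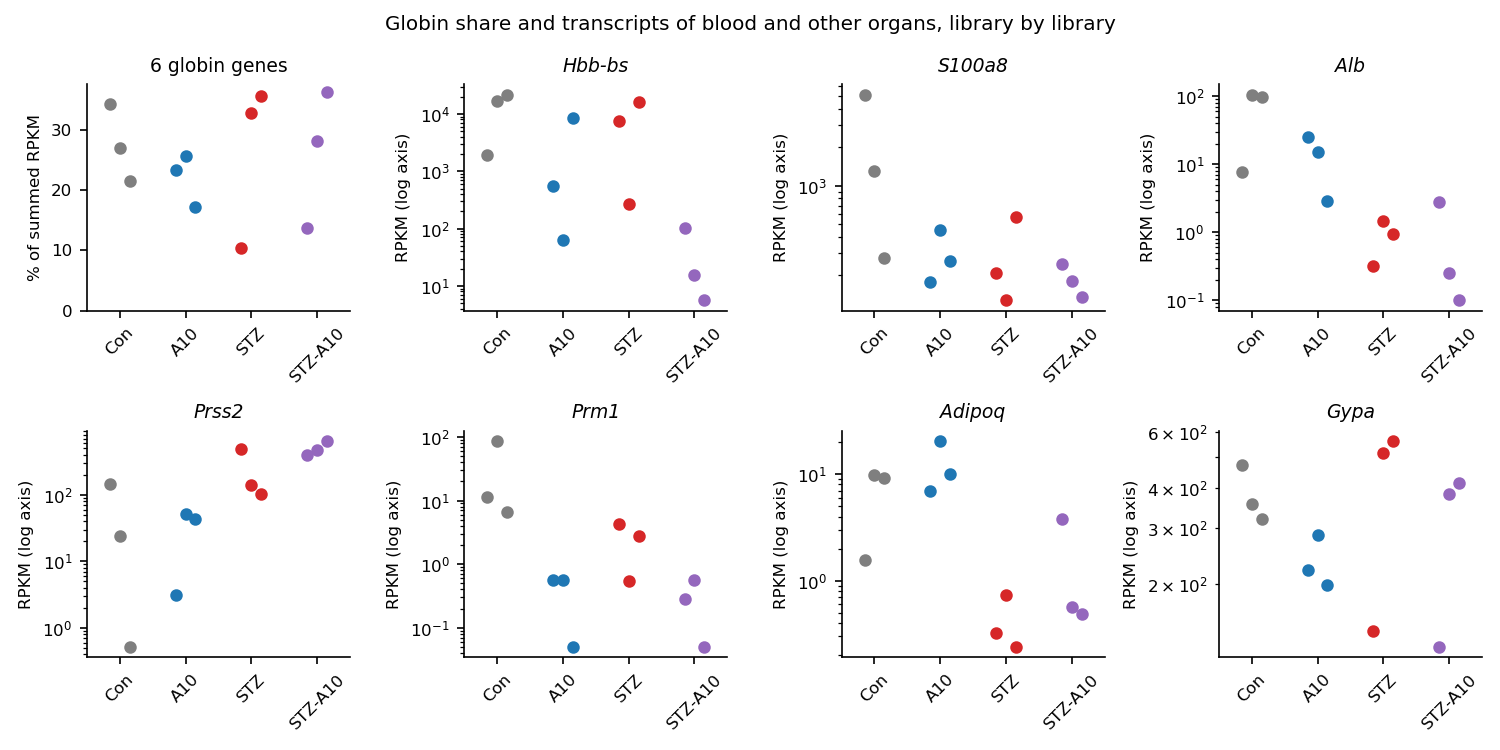
Globin share of summed RPKM (first panel, linear axis) and RPKM of 7 transcripts (log axes, with values of 0 drawn at 0.05) in each of the 12 libraries, 3 points per group from replicate 1 to 3. STZ replicate 1 and STZ-A10 replicate 1 have the lowest globin share, 10.4% and 13.7%, S100a8 is highest in Con replicate 1, and Prm1 lies between 6.56 and 85.59 RPKM in Con and at 4.24 or less elsewhere.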

How the data were processed

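Spleen RNA of 12 libraries was analysed from a table of RPKM values that the authors deposited. Per the labels, the submitters' processing notes name Bowtie 0.12.2 and the mm10 build, while the study's methods name SOAPaligner, and which of them made the table is not given in the sources used here. RPKM removes depth, and a large globin share lowers all other values of a library. Of 19326 lines, 6 with repeated names were left out, and 26 names turned into dates were kept in the fit and are not named. From the deposited RPKM, log2(RPKM + 1) was computed for 12773 genes with an RPKM of at least 1 in at least 3 libraries. limma 3.58.1 (R 4.3.3) fitted AOS and STZ as additive terms, and the 4 group means for the comparisons within each STZ status and the interaction, with Benjamini-Hochberg adjustment at 0.05. The scripts were tested on simulated data. Positions are from GENCODE M21. The members and gene lists were chosen with earlier results of these data known. Genes named were those past the threshold without overlap in either STZ status and with a mean of at least 5 RPKM, filled up to 5 per direction by the smallest unadjusted p, the 3 smallest interaction p per direction at that level, and per list the passing members or otherwise the 2 most abundant. Others are stated as named after their values were seen. Some genes are not reported here.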

Additional observations from a re-analysis of the deposited data

How the results depend on the processing

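The count of genes past the threshold for AOS was 1 (Kap). It was 3 with the globin genes removed, 4 with no filter on low values, 0 when an RPKM of 1 was asked of every library (which removes Kap), 35 with array weights and 1 to 5 when 1 library was left out, with 5 without STZ replicate 1. Among alternatives chosen after seeing the data, it was 5 with the globin share as a covariate and 2 without the 2 libraries of lowest globin. For A10 against Con the count of 1 was 2 with quantile normalization, 0 with an RPKM of 1 in every library, 3963 with array weights and 1 to 13 when 1 library was left out (13 without Con replicate 1, 2 without Con replicate 2). For STZ-A10 against STZ the count of 1 was 3 with the globin genes removed, 2 with no filter, 0 with an RPKM of 1 in every library, 2095 with array weights and 1 to 3 when 1 library was left out (3 without STZ replicate 1, 2 without A10 replicate 1, A10 replicate 2 or STZ-A10 replicate 3). The interaction count of 0 was 1083 with array weights. For these last 3 counts (3963, 2095 and 1083) the estimate of the weights in the model of group means did not converge and gave Con replicate 2 a weight of 41.3, so they bear on no result. The cause of the other differences was not tested. The globin difference ran from -6.88 to 0.16 percentage points when 1 library was left out, with 0.16 without STZ-A10 replicate 1. Of the other values, 1583 stayed on their side of the threshold or within their spread, 24 moved and 20 became called.

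With the replicate number as a block the counts were 1 for AOS, 1 for A10 against Con, 1 for STZ-A10 against STZ and 0 for the interaction. The numbers were not taken as pairing, since 4 of 18 same-numbered pairs had deviations correlated above 0.1 (range -0.352 to 0.574) and 5 of 12 libraries correlated best with their own number. Between STZ and STZ-A10, same-numbered pairs correlated at 0.574, 0.047 and 0.434, and the other pairs at -0.587 to 0.304. The pooled count therefore does not settle pairing for STZ-A10 against STZ.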
